A study of Mus musculus with 24 samples.

Results

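The genes that flank Celf6 on mouse chromosome 9 were followed in brains with and without that gene. A gene was taken where all its exons lie on chromosome 9 and the midpoint of its span falls between 55.6 and 63.6 Mb (mm10), with Celf6, Rplp1, Kif23, Hcn4, Cspg4 and the Chrn genes left out. The rule, which uses position and no measured value, took 101 of the 24062 genes in the count files, 67 at lower and 34 at higher coordinates than Celf6 (59578337–59607292). Just inside the limits lie Scaper and Iqch, and just outside lie Isl2 and Aagab. RefSeq lists 98 of the 101, and 78 as protein coding. RNA came from Celf6 knockout (KO) and wild-type (WT) mice at postnatal day 9, from tissue behind the thalamus with the cortex removed, as translating ribosome affinity purification (TRAP) RNA from serotonin cells or as total RNA (input). The groups used were KO TRAP and WT TRAP with 5 libraries each, KO input with 5 and WT input with 3. The TRAP libraries come from animals with an allele that tags ribosomes in serotonin cells. The labels give neither the strain nor the kind of knockout allele.

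As background, CELF6 binds RNA and belongs to a family of proteins known for their action on splicing and on the stability of messenger RNA. Genes that sit close to a targeted locus stay linked to it in breeding, and their regulatory DNA can overlap, so neighbours are often read as a check on a knockout line. The interval holds genes of many kinds, among them enzymes of metabolism, lysosomal proteins, ubiquitin ligases, corepressors, kinases and adhesion proteins.

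The genes that border Celf6 on either side, and the genes whose level differed between TRAP and input, are shown by 30 bases around their RefSeq start site (GRCm38.p6, 5′ to 3′ on the gene's strand), in lower case before the start and in capitals from the first transcribed base. All of these lie on the plus strand. Hexa, the neighbour at lower coordinates, is shown from chr9:59539525-59539554, Parp6, the neighbour at higher coordinates, from chr9:59617269-59617298, Tle3 from chr9:61372351-61372380, Sema7a from chr9:57940097-57940126 and Rpp25 from chr9:57504087-57504116.
Hexa: gcttggccagggcggGGATCGATCCTTCAC
Parp6: gagaccgcacgctgaGGCGTGTGGTGCGCG
Tle3: attttgttacttttcAGTCCCTATTTGGAA
Sema7a: gccgggcgctgtctcAGTCTCGGCTGCTTG
Rpp25: agactgcacgttcccAGCCCACCCTCCAAC
In the 300 bases around the start the dinucleotide CG stood 10 times for Hexa, 33 times for Parp6, 21 times for Tle3, 23 times for Sema7a and 17 times for Rpp25. The median was 16 over the 90 flanking genes with an entry on chromosome 9, 22.5 over the 56 of them that could be tested in TRAP, and 7 over 27025 genes of the genome. For a flanking gene the window nearest to the gene's start was taken. For the genome it was each gene's window at the lowest coordinate, so these medians rest on windows chosen in different ways. The 56 genes had also passed a filter on low counts, and the 27025 had not been filtered by level. No median was computed over all genes tested in TRAP, so these medians do not show whether the interval is unusual. The interval also holds a pair of miRNA genes, whose mature forms are given with the seed (bases 2 to 8) in capitals, from chr9:58221155-58221175 on the plus strand and chr9:62122565-62122585 on the minus strand.
mmu-miR-6385: gCAAGGAUgacagagaggaag
mmu-miR-5133: gCUGGAGCugcggcagcgcag
Their seeds differ. Each gene had 2 counts over the 18 libraries, in libraries that were not made for small RNA, so neither was tested.

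The libraries held 3390423 to 6861963 counts each. The WT input libraries 2 and 3 were as alike as repeat runs of a single library and were summed as WT input 2/3, and WT input 4 (325072 counts, labelled an outlier by the submitters) was left out. Celf6 itself was at 115, 21.4, 56.5, 26.9 and 36.3 CPM (counts scaled to a common library size) in the KO TRAP libraries, against 149.7, 188, 171, 116 and 85.2 CPM in the WT TRAP libraries. The library labelled KO TRAP 1 thus lies within the WT range, and the other 4 KO TRAP libraries lie below every WT TRAP library. The fold change of Celf6 in TRAP was −1.52 ± 0.38 (log2 of KO over WT ± SE, as for all fold changes below; edgeR adjusted p = 0.999; n = 5 each). It was −1.93 ± 0.36 without the library labelled KO TRAP 1 (edgeR unadjusted p = 5.7e-05, adjusted p = 0.474). Since the targeted gene itself missed an adjusted p of 0.05, a miss does not show that a flanking gene is unchanged. In input Celf6 was at 4.79 to 21.98 CPM in KO and at 33.1, 15.4 and 104 CPM in WT, and the fold change was −1.56 ± 0.66 (edgeR adjusted p = 1.00) or −0.44 ± 0.765 without the library labelled WT input 5. That library and the one labelled KO TRAP 1 hold Xist together with Y-linked RNA (37.0 CPM of Xist and 6.62 CPM of Eif2s3y in WT input 5, 71.2 CPM of Xist and 17.4 CPM of Kdm5d in KO TRAP 1). Fold changes of KO over WT named below that moved by more than 1.5-fold without 1 of them are given without it as well. Among the other TRAP libraries Xist prevailed in KO TRAP 3 and 5 and WT TRAP 1 and 4, and Y-linked RNA in the rest. Among the other input libraries Xist prevailed in KO input 1, 3 and 5 and WT input 1, and Y-linked RNA in the rest. Sex thus differed within every group, and no fit held a term for it. In TRAP libraries the 6 serotonin neuron markers were higher than in input by 4.48 to 5.89.

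Of the 101 flanking genes, 6 had no count in any library, 58 passed the filter on low counts in TRAP, 62 in input, 56 in both and 37 in neither. Per kilobase of exon, Cox5a, a subunit of cytochrome c oxidase, had the highest level, with a mean of 265.1 CPM per kb in KO TRAP, 295 in WT TRAP, 377 in KO input and 374 in WT input. The ubiquitin-like gene Ubl7 followed with 127, 136, 132 and 142 CPM per kb in the same groups, and Parp6, which encodes a mono-ADP-ribosyltransferase, with 148, 148, 102 and 88.9 CPM per kb. Next in order came Scamp5, Tspan3, Pkm, Lingo1, Commd4, Fem1b and Nptn, whose means over the groups ran from 109.8 down to 64.6 CPM per kb. Of the tested genes, several share exon bases with another gene (Ptpn9 with Gm10658, Man2c1 with Man2c1os, Nptn with 2410076I21Rik, Cln6 with Gm10653), and since reads were counted without strand their values are uncertain.

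The first question was whether the closest neighbours of Celf6 differ between KO and WT. None of the 10 tested genes nearest to it, 5 on each side, did so beyond the spread between libraries. Hexa, which encodes a subunit of the lysosomal enzyme that breaks down GM2 ganglioside, lies 0.013 Mb below Celf6. It was at 49.0, 16.0, 30.5, 6.02 and 19.2 CPM in KO TRAP, against 4.51, 7.41, 4.60, 45.4 and 42.9 CPM in WT TRAP. The ranges of the groups nearly coincide, and within sequencing run 1 (replicates 1 to 3) the difference was 2.35, against −1.99 within run 2 (replicates 4 and 5; both on the log2 CPM scale). The fold change of Hexa in TRAP was 0.92 ± 0.87 (edgeR adjusted p = 0.999), with a 95% interval from −0.90 to 2.74, and 0.46 ± 0.80 without the library labelled KO TRAP 1. In input Hexa was at 25.4, 5.39, 2.77, 8.38 and 14.98 CPM in KO, against 6.45, 7.89 and 20.5 CPM in WT, with a fold change of 0.081 ± 0.836, or 0.64 ± 1.08 without the library labelled WT input 5. The values of Hexa, spread as they are between libraries, therefore leave a wide interval in both kinds of RNA.

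Parp6, 0.010 Mb above Celf6, was measured much more precisely. It was at 364, 626, 445, 273 and 301 CPM in KO TRAP, against 267, 553, 476, 375 and 341 CPM in WT TRAP. Its fold change was −0.050 ± 0.264 in TRAP (95% interval −0.60 to 0.50) and 0.21 ± 0.28 in input (−0.39 to 0.81; edgeR adjusted p = 0.999 and 1.00), so that both intervals lie within 2-fold. The same holds for Pkm, which encodes pyruvate kinase of muscle and brain type and lies 0.049 Mb above Celf6. Pkm was at 208, 168.5, 208, 195 and 136 CPM in KO TRAP, against 174, 180.1, 176, 152 and 233 CPM in WT TRAP, with fold changes of −0.012 ± 0.255 in TRAP (−0.55 to 0.52) and 0.047 ± 0.303 in input (−0.60 to 0.69).

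Arih1, which encodes a ubiquitin ligase, had a fold change of 0.37 ± 0.31 in TRAP and −0.32 ± 0.28 in input. Bbs4, a part of the BBSome complex that carries proteins to cilia, was at 42.2 to 75.1 CPM in KO TRAP (median 53.4), against 29.6 to 49.4 CPM in WT TRAP (median 38.4). Its groups overlap, and its fold changes were 0.48 ± 0.35 in TRAP and 0.60 ± 0.42 in input, with positive differences within run 1 (0.38 in TRAP and 0.49 in input) and run 2 (0.62 in TRAP and 0.75 in input). Myo9a, an unconventional myosin, was at 53.8, 255, 93.9, 352 and 436 CPM in KO TRAP, against 242, 136, 201, 84.4 and 95.4 CPM in WT TRAP. The 2 KO TRAP libraries of run 2 are the highest and the 2 WT TRAP libraries of run 2 are among the 4 lowest, so that the difference was −0.78 within run 1 and 2.12 within run 2. The fold change of Myo9a was 0.49 ± 0.49 in TRAP, 0.91 ± 0.45 without the library labelled KO TRAP 1, and 0.21 ± 0.46 in input. Among the other near genes, Adpgk, an ADP-dependent glucokinase, was low (at most 17.0 CPM in TRAP) and had −1.16 ± 0.86 in TRAP and 0.58 ± 1.04 in input (−0.11 ± 1.13 without WT input 5). The axon guidance receptor gene Neo1 had 0.054 ± 0.291 in TRAP and −0.15 ± 0.45 in input, the NEDD8 protease gene Senp8 0.21 ± 0.47 in TRAP and 0.31 ± 0.62 in input, and the matrix protein gene Thsd4 0.59 ± 0.64 in TRAP and 0.14 ± 0.75 in input (0.96 ± 0.88 without WT input 5). All edgeR adjusted p for these 10 genes were at least 0.999 in both kinds of RNA.

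**Figure D1:**
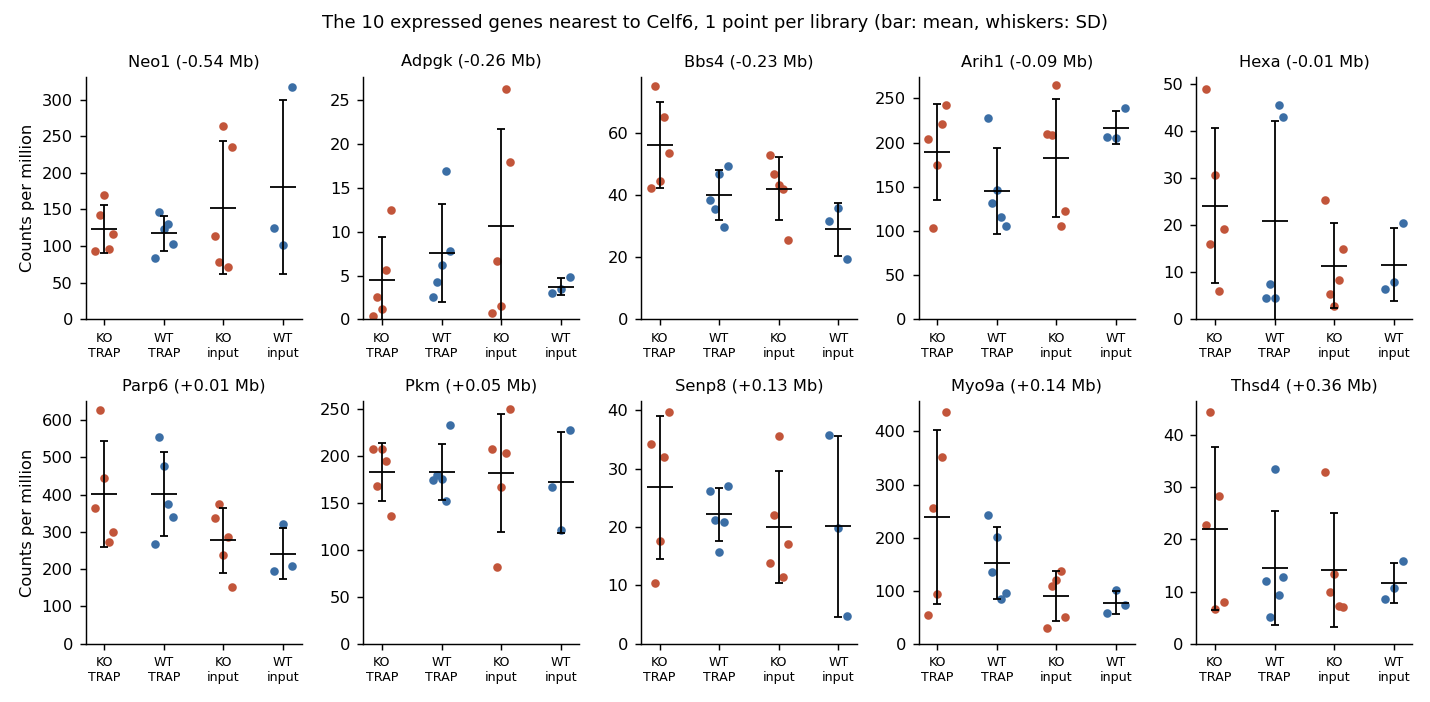
TMM-normalized level (CPM) of the 10 tested genes nearest to Celf6, in order of position, with 1 point per library, the group mean as a bar and the SD as whiskers (KO orange-red, WT blue). KO and WT points overlap for each gene in TRAP, as for Parp6 at 273 to 626 CPM in KO TRAP and 267 to 553 CPM in WT TRAP.

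The second question was whether the difference between KO and WT depends on the distance from Celf6. In TRAP 27 of the 58 tested genes were higher and 31 lower in KO, with a median fold change of −0.014, against 0.025 over all 12204 genes tested. No flanking gene passed an adjusted p of 0.05 (edgeR; 0% of all genes did), and 1 of 58, or 1.72%, had an unadjusted p below 0.05, against 3.73% of all genes. DESeq2 gave 0 adjusted and 3 unadjusted, against 0.00835% and 5.99% of all genes. The median size of a fold change, without its sign, was 0.31 for the flanking genes and 0.33 for all genes tested in TRAP. In input 30 of 62 were higher and 32 lower in KO, with a median of −0.041 against 0.015 over all 13036 genes. Here 0 passed the adjusted threshold and 0 the unadjusted one by edgeR (0% and 2.88% of all genes), and DESeq2 gave 0 and 1 (0% and 5.17% of all genes). The TRAP and input comparisons use different libraries of the same numbered brains.

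By distance, the median fold change in TRAP was 0.19 within 1 Mb (12 genes), −0.14 from 1 to 2 Mb (17 genes), −0.079 from 2 to 3 Mb (18 genes) and −0.014 from 3 to 4 Mb (11 genes). In input these medians were 0.14 (13 genes), −0.19 (18 genes), −0.29 (19 genes) and −0.0035 (12 genes). Within 0.5 Mb 6 genes were higher and 3 lower in KO in TRAP, and 8 and 1 in input. By side, genes below Celf6 split 17 higher to 23 lower in TRAP (median −0.088) and 16 to 27 in input (median −0.25). Genes above it split 10 to 8 in TRAP (median 0.19) and 14 to 5 in input (median 0.21). These splits were not tested. Over the genes within 1 Mb, each library's median deviation from the WT mean was 0.0026, 0.24, 0.19, 0.28 and 0.25 in KO TRAP 1 to 5, against −0.043, −0.12, 0.079, −0.061 and 0.19 in WT TRAP 1 to 5. The library labelled KO TRAP 1 lies inside the WT range, so the groups overlap. KO TRAP 2, 4 and 5 lie above every WT TRAP library, and KO TRAP 3 (0.19338) lies barely above WT TRAP 5 (0.19326). KO TRAP 1 is also the library that held Celf6 within the WT range. The WT libraries themselves make up the mean from which the deviations are taken. Over all genes tested in TRAP the library medians ran from 0.0014 to 0.046 in KO and from 0.011 to 0.040 in WT. The difference between KO and WT in the medians within 1 Mb was not tested. In input the medians within 1 Mb were −0.042, 0.047, 0.24, 0.25 and −0.13 in KO, against −0.27, −0.084 and 0.36 in WT, so the groups overlap there too. Across genes, which are not independent replicates, Spearman's rank correlation between fold change and distance was −0.21 in TRAP (58 genes) and −0.13 in input (62 genes), and between the size of the fold change and distance 0.011 in TRAP and −0.035 in input. The rank correlation between the size of the fold change and the level of the gene was −0.46 in TRAP and −0.59 in input. Larger fold changes thus tended to belong to genes at lower levels. The same correlation over all genes was not computed.

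**Figure D2:**
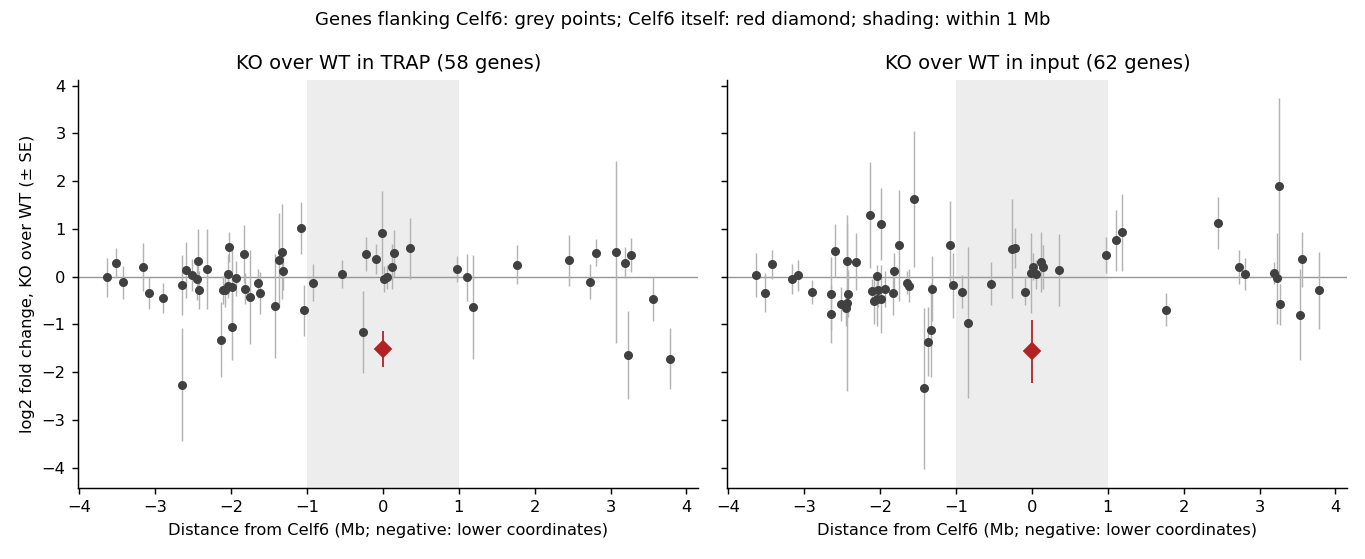
log2 fold change of KO over WT (± SE) in TRAP (left, 58 genes) and input (right, 62 genes) against the distance from Celf6 in Mb, negative at lower coordinates. Grey points are flanking genes, the red diamond is Celf6 at −1.52 in TRAP and −1.56 in input, and the shading marks 1 Mb on either side, where the medians were 0.19 in TRAP and 0.14 in input.

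**Figure D3:**
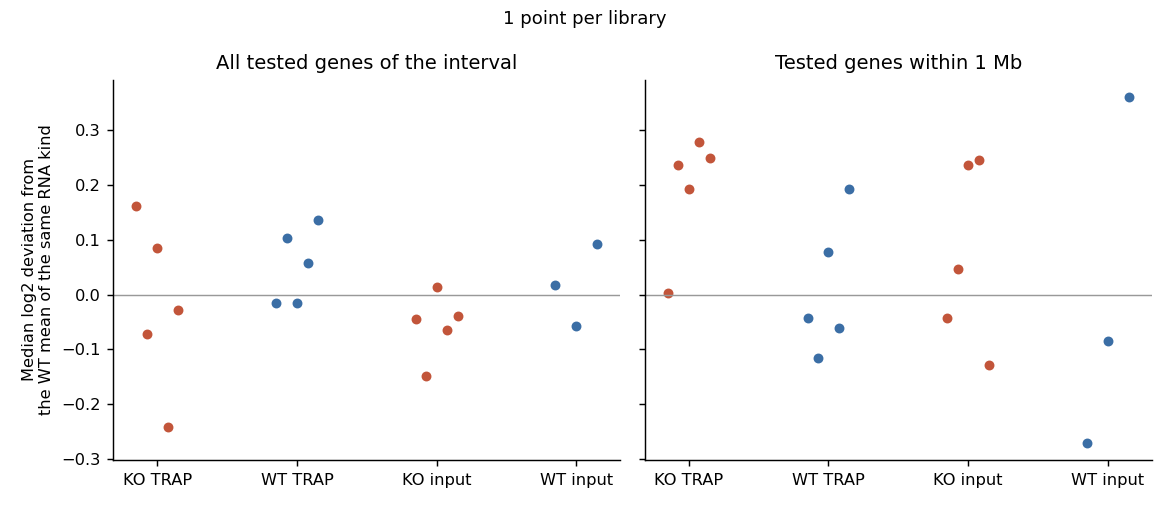
Median over genes of the log2 deviation from the WT mean of the same kind of RNA, 1 point per library (KO orange-red, WT blue), for all tested genes of the interval (left) and for those within 1 Mb of Celf6 (right). On the right, KO TRAP libraries run from 0.0026 to 0.28 and WT TRAP libraries from −0.12 to 0.19.

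For 19 of the 58 genes in TRAP the 95% interval lay within 2-fold in both directions, against 23.5% of all genes tested. They include Parp6, Pkm, Neo1, Cox5a, Nptn, Lrrc49, Anp32a and Fem1b. In input this held for 15 of 62, against 21.4% of all genes. For the remaining genes the interval reached past a 2-fold change in at least one direction. In 28 of 58 genes in TRAP and 28 of 62 in input the difference had the same sign in both sequencing runs, and of the 56 genes tested in both kinds of RNA 28 had the same sign in both. In no tested flanking gene did the KO and WT libraries separate without overlap (0 of 58 in TRAP and 0 of 62 in input, against 0.721% and 2.24% of all genes). Over all genes, KO lay below every WT library for 0.41% in TRAP and 1.27% in input, and above every WT library for 0.311% in TRAP and 0.967% in input.

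The gene with the smallest p in TRAP was 2300009A05Rik, 3.787 Mb above Celf6. It was at 11.8, 8.49, 11.7, 2.82 and 7.47 CPM in KO TRAP, against 4.98, 40.9, 25.7, 28.7 and 31.8 CPM in WT TRAP. Every KO TRAP library lies below 4 of the 5 WT TRAP libraries, while WT TRAP 1 lies within the KO range. Its fold change was −1.71 ± 0.64 (edgeR adjusted p = 0.999), with differences of −0.72 within run 1 and −2.61 within run 2, and in input −0.29 ± 0.81 (0.47 ± 1.04 without WT input 5). Mpi, which encodes the enzyme that links glycolysis to mannose metabolism, had 0.62 ± 0.31 in TRAP, with 185, 124, 90.0, 116 and 95.8 CPM in KO, against 48.9, 82.5, 96.8, 92.0 and 70.2 CPM in WT. Only KO TRAP 3 and KO TRAP 5 lie among the WT values of Mpi, and without the library labelled KO TRAP 1 its fold change was 0.43 ± 0.32. In input Mpi had −0.27 ± 0.35. Snx33, a sorting nexin, had −2.26 ± 1.18 in TRAP and −0.35 ± 0.77 in input, Cln6, a membrane protein of the endoplasmic reticulum whose loss causes a lysosomal storage disease, −1.63 ± 0.92 in TRAP and −0.037 ± 0.948 in input (0.89 ± 1.17 without WT input 5), and 6030419C18Rik 1.02 ± 0.54 in TRAP and 0.66 ± 0.93 in input (−0.31 ± 0.80 without WT input 5). None of these passed the adjusted threshold (edgeR adjusted p = 0.999 in TRAP and 1.00 in input).

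In input the smallest p belonged to Glce, which encodes an epimerase of heparan sulfate synthesis and lies 2.45 Mb above Celf6. It was at 38.9, 68.3, 49.7, 49.5 and 65.8 CPM in KO input, against 45.3, 33.9 and 6.92 CPM in WT input. The low value is that of the library labelled WT input 5, and the fold change of 1.12 ± 0.55 (edgeR adjusted p = 1.00) was 0.40 ± 0.49 without it. In TRAP Glce had 0.35 ± 0.53. Tle3, a corepressor of the Groucho family, had −0.69 ± 0.35 in input (−0.42 ± 0.45 without WT input 5) and 0.25 ± 0.41 in TRAP. The scaffold of a histone deacetylase complex, Sin3a, had −0.66 ± 0.38 in input (−0.23 ± 0.47 without WT input 5) and −0.055 ± 0.431 in TRAP. Islr2, a neuronal membrane protein with leucine-rich repeats, had −1.36 ± 0.73 in input and 0.35 ± 0.99 in TRAP, and the tyrosine phosphatase gene Ptpn9 −0.58 ± 0.35 in input and 0.038 ± 0.331 in TRAP.

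Grouped by role, none of the groups held a gene that passed the adjusted threshold between KO and WT in TRAP or in input (edgeR; 0% of all genes in either). Of 9 metabolic enzymes, 6 were tested in TRAP, 3 higher and 3 lower in KO (median 0.16), and 7 in input, 6 higher and 1 lower (median 0.34). Cox5a had −0.20 ± 0.25 in TRAP and 0.012 ± 0.233 in input. Of 5 genes of the lysosome and of glycan turnover, among them Hexa, Cln6, Glce and Mpi, 4 were higher and 1 lower in TRAP (median 0.35) and 3 higher and 2 lower in input (median 0.081). Of 7 genes of the ubiquitin and SUMO pathway, 5 were higher and 2 lower in TRAP (median 0.29) and 2 higher and 5 lower in input (median −0.32). In that group Fem1b, which picks substrates for a cullin ubiquitin ligase, had 0.29 ± 0.33 in TRAP and 0.082 ± 0.227 in input, and Ubl7 had −0.14 ± 0.30 in TRAP and −0.13 ± 0.24 in input.

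Transcription regulators split 3 higher to 4 lower in TRAP (median −0.055) and 3 to 5 in input (median −0.62). Anp32a, an acidic nuclear phosphoprotein, had −0.10 ± 0.37 in TRAP and 0.21 ± 0.35 in input. Kinases and phosphatases split 2 higher to 6 lower in TRAP (median −0.14) and 5 to 3 in input (median 0.085). Genes of adhesion, guidance and matrix split 3 to 5 in TRAP (median −0.23) and 1 to 6 in input (median −0.32). In this group Lingo1, an inhibitor of myelination, had −0.45 ± 0.31 in TRAP, −0.77 ± 0.28 without the library labelled KO TRAP 1 (edgeR adjusted p = 0.995) and −0.33 ± 0.25 in input, and the adhesion protein gene Nptn −0.13 ± 0.39 in TRAP and −0.32 ± 0.35 in input. Membrane traffic genes split 2 to 5 in both kinds of RNA (median −0.12 in TRAP and −0.29 in input). Scamp5, a protein of secretory and synaptic vesicles, had −0.28 ± 0.29 in TRAP and −0.29 ± 0.25 in input, and the tetraspanin gene Tspan3 −0.12 ± 0.34 in TRAP and 0.26 ± 0.31 in input.

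Genes of RNA processing and decay split 2 higher to 4 lower in TRAP (median −0.094) and 3 to 3 in input (median −0.11). Clk3, a kinase of splicing factors, had −0.25 ± 0.32 in TRAP and 0.12 ± 0.38 in input, and Rpp25, a subunit of RNase P and RNase MRP, −0.28 ± 0.35 in TRAP and −0.50 ± 0.49 in input. Both tested cilium genes were higher in both kinds of RNA (median 0.32 in TRAP and 0.53 in input), with Lrrc49, a subunit of a tubulin polyglutamylase, at 0.16 ± 0.28 in TRAP and 0.45 ± 0.38 in input. Actin and motor protein genes split 3 to 1 in both (median 0.34 in TRAP and 0.13 in input), with the coronin gene Coro2b at 0.50 ± 0.28 in TRAP and 0.058 ± 0.332 in input. In the list of DNA repair and ADP-ribosylation, which holds Parp6 and the DNA glycosylase gene Neil1, Neil1 was tested in input only, at −0.55 ± 1.84, or −1.54 ± 1.95 without WT input 5.

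The difference between KO and WT was then compared between TRAP and input. Of 72 flanking genes tested, 0 passed the adjusted threshold (edgeR; 0% of all 14261 genes; by DESeq2 0 flanking genes and 0.0215% of all genes), and 5, or 6.94%, had an unadjusted p below 0.05, against 3.88% of all genes. With 1 library left out, this count ran from 0 of 75 without WT input 5 to 5 of 72 without KO TRAP 2 (3.48% and 4.4% of all genes). The fit took TRAP and input libraries of the same number as independent. With the replicate number as a block the count was 1 of 72, against 2.47% of all genes. Of the 5 genes in the main fit, Cyp11a1, Itga11, Loxl1 and Gm20199 have few counts in most libraries. Cyp11a1, which starts the synthesis of steroid hormones, was at 0 to 0.561 CPM in KO TRAP, against 0.708 to 8.30 CPM in WT TRAP, and at 3.23 to 24.8 CPM in KO input, against 0, 15.7 and 0 CPM in WT input. Every KO TRAP library lies below every WT TRAP library, at a level too low for the test within TRAP. The difference of its differences was −5.12 ± 2.21 (edgeR adjusted p = 1.00), and it ran from −12.5 without WT input 2/3 to −4.15 without WT input 5 when 1 library was left out. For the collagen receptor gene Itga11 it was 5.51 ± 2.60, with 1 of 3 WT input libraries, WT input 5, at 34.3 CPM and every other input library at 0.294 CPM or less. Without WT input 5 it was 1.41, and without KO TRAP 3 it was 3.01. For Loxl1, an enzyme that crosslinks elastin, it was 4.53 ± 2.13, with KO TRAP 2 at 22.04 CPM and all other libraries at 6.21 CPM or less, and without KO TRAP 2 it was 2.54. The other 2 genes were named after their values were seen. Gm20199, a long noncoding RNA within the span of Arih1, 0.097 Mb below Celf6, had 5.87 ± 2.61, with a mean over the libraries of 0.725 CPM. It was at 0.748, 0, 3.89, 0.376 and 2.67 CPM in KO TRAP, against 0 to 0.177 CPM in WT TRAP, and at 2.62 CPM in KO input 2 and 0 in the other KO input libraries, against 0.698, 0.671 and 1.20 CPM in WT input. For the kinase gene Ulk3 the difference was −2.24 ± 1.08, with 2.40 to 18.1 CPM in KO TRAP, against 3.56 to 37.0 CPM in WT TRAP, and 4.66 to 40.2 CPM in KO input, against 5.93 to 12.4 CPM in WT input. The adjusted p of each of the 5 was 1.00 (edgeR). Within TRAP Itga11 had 0.51 ± 1.91 (1.79 ± 2.19 without KO TRAP 1), and in input Cyp11a1 had 1.62 ± 1.42 (0.80 ± 1.42 without WT input 5).

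Between TRAP and input, 3 of the 72 flanking genes (4.17%) passed the adjusted threshold, against 4.72% of all 14261 genes, and 19 (26.4%) had an unadjusted p below 0.05, against 19% of all genes. By direction, 1 flanking gene passed the adjusted threshold as higher in TRAP and 2 as lower, against 2.41% and 2.31% of all genes, and 11 and 8 passed the unadjusted one, against 9.59% and 9.4%. In these bulk samples fewer cells of a type and less RNA per cell cannot be told apart. Tle3 fell in TRAP, with a fold change over input of −1.19 ± 0.31 (edgeR adjusted p = 0.0250). It was at 75.9, 35.8, 38.3, 20.3 and 29.1 CPM in KO TRAP and 53.9, 46.4, 25.5, 16.3 and 24.9 CPM in WT TRAP, against 52.2, 51.4, 68.2, 57.7 and 82.8 CPM in KO input and 49.4, 103 and 155 CPM in WT input. The library labelled KO TRAP 1 and WT TRAP 1 lie within the input range and the other 8 TRAP libraries lie below every input library. Within run 1 Tle3 differed by −0.55 and within run 2 by −2.21.

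Sema7a, a membrane-anchored semaphorin, also fell in TRAP, with a fold change of −1.06 ± 0.29 (edgeR adjusted p = 0.0312). It was at 16.8, 34.1, 19.9, 27.1 and 54.2 CPM in KO TRAP and 31.8, 19.2, 31.3, 26.8 and 88.0 CPM in WT TRAP, against 43.8, 75.3, 53.3, 71.1 and 77.6 CPM in KO input and 80.2, 48.5 and 88.2 CPM in WT input. Only KO TRAP 5 and WT TRAP 5 reach into the input range, and the difference was −1.25 within run 1 and −0.90 within run 2. Rpp25 rose in TRAP, with a fold change of 1.01 ± 0.29 (edgeR adjusted p = 0.0446). It was at 78.9, 83.3, 48.8, 53.5 and 38.7 CPM in KO TRAP and 59.6, 86.0, 66.6, 41.8 and 106 CPM in WT TRAP, against 15.7, 46.9, 27.9, 23.7 and 21.4 CPM in KO input and 48.0, 58.4 and 20.5 CPM in WT input. The TRAP and input values overlap between 38.7 and 58.4 CPM. Its difference was 0.85 within run 1 and 1.34 within run 2.

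These 3 calls changed with the libraries and terms in the fit. Without WT input 5 the adjusted p was 0.137 for Tle3, 0.0673 for Sema7a and 0.170 for Rpp25, and without KO TRAP 1 and WT input 5 together no flanking gene passed, against 2.27% of all genes (0.0712 for Tle3, 0.0972 for Sema7a and 0.217 for Rpp25; edgeR). Leaving out 1 of the 18 libraries at a time ended the call of Tle3 in 5 cases, of Sema7a in 7 and of Rpp25 in 13. Without the sequencing run term Rpp25 and Sema7a also missed the threshold (edgeR adjusted p = 0.0644 and 0.0705). Other flanking genes passed when 1 library was left out, as Anp32a did without WT input 5 (−0.997 ± 0.266, edgeR adjusted p = 0.0432) and Myo9a without KO TRAP 1 (1.32 ± 0.33, edgeR adjusted p = 0.0186). The design counts 5 brains per genotype, and TRAP and input libraries share their numbers. With the replicate number as a block, 1 flanking gene passed, against 3.79% of all genes. It was Myo9a, at 1.12 ± 0.30 (edgeR adjusted p = 0.0333), and the adjusted p was 0.0835 for Tle3, 0.0657 for Sema7a and 0.0720 for Rpp25. In WT this block did not follow the brain throughout. WT TRAP 2 and WT TRAP 3 shared 1 block with WT input 2/3, and WT TRAP 4 had no input partner. Without the block Myo9a had 1.18 ± 0.36 (adjusted p = 0.0590) and Parp6 0.64 ± 0.20 (adjusted p = 0.0603). DESeq2 called 10 flanking genes, against 9.21% of all genes, namely the 3 above and Skor1, Anp32a, Myo9a, Parp6, Cyp11a1, Map2k5 and Itga11. Over the cell type markers, all 5 oligodendrocyte lineage genes and all 5 astrocyte genes had negative fold changes in TRAP over input, from −1.97 to −0.66 and from −2.04 to −0.51, of which 3 and 2 passed the adjusted threshold. The summed level of the 5 oligodendrocyte lineage genes was 1276 to 3973 CPM in KO TRAP and 879 to 4645 CPM in WT TRAP, against 4425 to 7876 CPM in KO input and 4317 to 11191 CPM in WT input, and that of the 5 astrocyte genes was 99.4 to 379 CPM in KO TRAP and 68.6 to 377 CPM in WT TRAP, against 356 to 488 CPM in KO input and 331 to 447 CPM in WT input. All 3 GABAergic genes had negative fold changes, of which Gad2 (−1.03) and Slc32a1 (−1.23) passed, and their summed level was 358 to 656 CPM in KO TRAP and 189 to 521 CPM in WT TRAP, against 462 to 1252 CPM in KO input and 698 to 845 CPM in WT input. Of the 3 dopaminergic and noradrenergic genes all had negative fold changes and 1 passed, Slc6a2 (−2.58). Negative fold changes also stood for 4 of 4 microglia, 2 of 2 glutamatergic, 2 of 2 choroid plexus and 1 of 3 endothelial genes, of which 0 passed. No marker was at 0 in every library. The part of these cells in the differences of Tle3 and Sema7a was not tested.

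**Figure D4:**
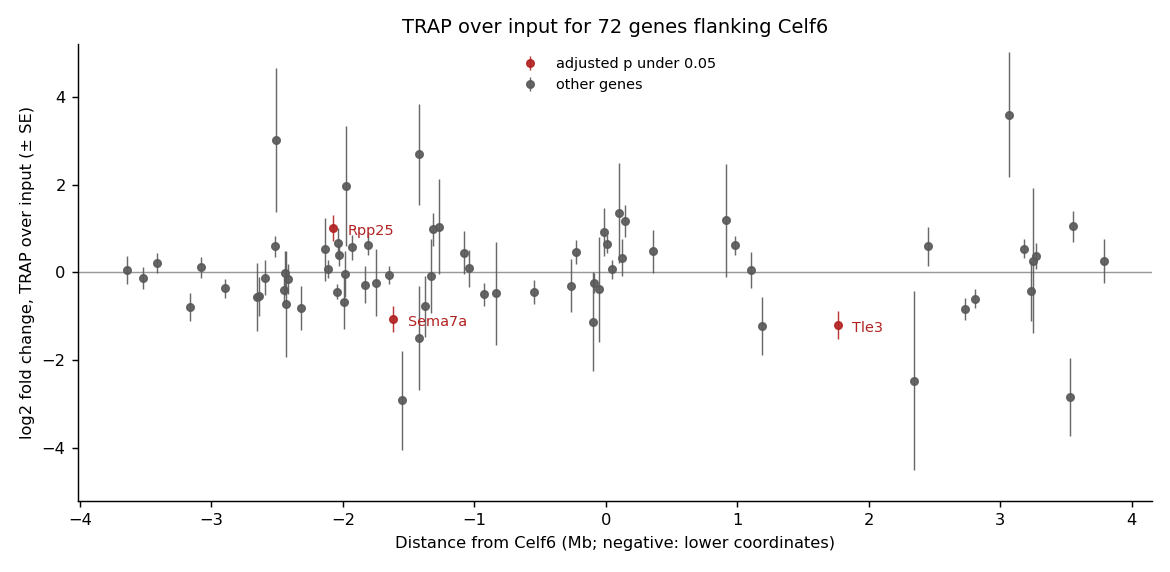
log2 fold change of TRAP over input (± SE, KO and WT weighted equally) for 72 flanking genes against the distance from Celf6 in Mb. Genes with an adjusted p under 0.05 are red and named: Rpp25 at 1.01, Sema7a at −1.06 and Tle3 at −1.19.

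Splicing was read from the authors' deposited fractions of inclusion (PSI, between 0 and 1). Of 8935 splicing events 32 lie in 17 flanking genes, and 5 of these had enough libraries to be tested in TRAP and 4 in input. None passed the adjusted threshold (limma; 0.0537% of 1861 tested events in TRAP did and 0% of 1154 in input). The unadjusted p was below 0.05 for 1 of 5 in TRAP, against 6.02% of all events, and for 0 of 4 in input, against 3.29%. That event was a skipped exon of Mpi, with a PSI of 0.987, 0.972, 0.979, 0.963 and 0.955 in KO TRAP, against 0.933, 0.937, 0.965 and 0.957 in WT TRAP 1 to 4. KO TRAP 1 to 3 lie above all WT values, and KO TRAP 4 and KO TRAP 5 lie within them. The difference was 0.96 ± 0.40 on the log2 odds scale (limma adjusted p = 0.776).

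An event in Pkm is the choice between its mutually exclusive exons. Its PSI averaged 0.905 ± 0.063 in KO TRAP and 0.886 ± 0.044 in WT TRAP (SD, n = 5 each), and 0.773 ± 0.072 in KO input (n = 5) and 0.818 ± 0.147 in WT input (n = 3). The difference of KO from WT was 0.42 ± 0.47 in TRAP and −0.64 ± 0.68 in input (log2 odds; limma adjusted p = 0.936 and 0.973). Per the file headers a PSI of 1 stands for the form with the later of the exons, and this direction could not be checked against the counts per gene, so which form of Pkm it stands for is uncertain. The skipped exon of Parp6 had a PSI of 0.946 ± 0.019 in KO TRAP and 0.948 ± 0.018 in WT TRAP (SD, n = 4 each), a difference of −0.041 ± 0.407. The skipped exon of Nptn had 0.968 ± 0.010 in KO TRAP (n = 3) and 0.957 ± 0.013 in WT TRAP (n = 4), and 0.958 ± 0.0076 in KO input (n = 5) and 0.963 ± 0.0090 in WT input (n = 3), with adjusted p = 0.931 in TRAP and 0.973 in input (limma). A retained intron of Clk3 averaged 0.0088 in KO TRAP and 0.0154 in WT TRAP (difference −0.45 ± 0.38), one of Tle3 0.0275 in KO input and 0.0271 in WT input (0.051 ± 0.680), and an alternative 5′ splice site of Nptn differed by −0.46 ± 0.27 in input. Of 5 tandem UTR events in flanking genes 0 could be tested. In the authors' deposited table, 3 of the 17 flanking genes with splicing events are marked as bound by CELF6 in crosslinking and immunoprecipitation, against 24.7% of the 4133 genes with such events.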

How the data were processed

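Reads had been trimmed, aligned to mm10 and counted with Trimmomatic, STAR and featureCounts, per the submitters' processing notes. The deposited counts are reads summed over the exons of each gene by featureCounts 1.4.6-p5 without strand and without reads that map to several places, per the file headers. The deposited fractions (PSI) come from MISO, and the authors kept values with a credible interval of at most 0.20. The authors' deposited p-values, from ANOVA on log2(PSI/(1 − PSI)), were not used as results here. Of 24 libraries, 4 repeat runs and WT input 4 were left out. WT input 2 and 3 were summed, since their chi-square per gene of 1.365 lies below that of repeat runs of 1 library (1.39 to 2.67) and of the 35 other pairs within a group (26.2 to 95.4), which left 18 libraries.

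All genes kept by filterByExpr entered edgeR 4.0.16 under R 4.3.3. Libraries were scaled by TMM, the model held a term for the sequencing run, the quasi-likelihood test was used, and p was adjusted by Benjamini-Hochberg with a threshold of 0.05. TRAP and input were fitted apart for KO against WT and together for TRAP against input and for the difference of differences. CPM are TMM-normalized. Differences within a run are of mean log2 CPM with a prior count of 2. PSI was tested with limma 3.58.1 on log2(PSI/(1 − PSI)). DESeq2 1.42.0 was an alternative at the main settings. The other alternatives were edgeR fits with other size factors, no filter, no run term, the replicate block or each library left out. The fits were tested on simulated counts: of genes changed 2-fold and 4-fold, 12.2% and 43.5% were recovered for KO against WT in TRAP and 4.35% and 43.8% in input.

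The genes named are Celf6, the 5 nearest tested genes on each side, those with the smallest p at a mean of at least 1 CPM (5 for TRAP, 5 for input, 3 for the difference of differences), those past the threshold between TRAP and input, the 2 with the highest level of each role list and the PSI events with the smallest p (3 for each kind of RNA). The other PSI events, the remaining unadjusted genes of the difference of differences, the genes called under other settings, the miRNAs and the genes ranked by level were named after their values were seen. The values of 1 gene that this rule names are not reported here. The members and the role lists were chosen with earlier results of these data known. The design names 5 brains per genotype, and p-values measure the spread between these libraries.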

Additional observations from a re-analysis of the deposited data

Results flagged for a closer look

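In 4 of the 123 groups of 5 libraries examined, 1 library lay far from the others of its group. WT input, with 3 libraries, was too small a group to be examined. Chance gives such a library in about 1 in 20 groups. 2300009A05Rik was at 4.98 CPM in WT TRAP 1, against 25.7 to 40.9 CPM in the other WT TRAP libraries. Snx33 was at 0.158 CPM in WT TRAP 2, against 9.56 to 26.0 CPM in the other WT TRAP libraries. Itga11 was at 0.294 CPM in KO input 5, from 1 count, and at 0 in the other KO input libraries. With all the others at 0 any count is flagged, so the rate of 1 in 20 does not hold for Itga11. Celf6 itself was at 4.79 CPM in KO input 4, against 14.8 to 21.98 CPM in the other KO input libraries.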

How the results depend on the processing

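No flanking gene passed the adjusted threshold between KO and WT in TRAP, in input or in the difference of differences under any alternative run. The same held for the PSI events of flanking genes. Celf6 in TRAP passed only without the filter on low counts (−1.50, edgeR adjusted p = 0.0323). Of 84 single values, 43 changed sign under at least 1 alternative, 38 of them smaller than their SE, and none of the 92 sign changes touched a value past the threshold. Between TRAP and input the number of flanking genes called was 10 with DESeq2, 6 without the filter, 1 with the replicate block and 0 without KO TRAP 1 and WT input 5, an alternative chosen after seeing the data (9.21%, 5.35%, 3.79% and 2.27% of all genes), and it ran from 0 to 5 when 1 library was left out. It was 0 without KO TRAP 4 and 5 without KO TRAP 3 (4.03% and 5.88% of all genes). The cause was not tested.

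The signs that turned in TRAP were those of Pkm (0.0067 without the filter), Ptpn9 and Sin3a (−0.096 and 0.20 without the run term), and Glce and Itga11 (−0.075 and −0.51 with the replicate block). In input they were those of Hexa, Senp8 and Snx33 (−0.022, −0.016 and 0.31 without the run term), of 2300009A05Rik, Hexa, Myo9a and Neo1 (0.14, −0.018, −0.39 and 0.11 with the replicate block), and of Cln6 (0.31 with WT input 2 and 3 apart). With WT input 4 kept in they were those of Anp32a (−0.58), Bbs4 (−0.0091), Cox5a (−0.059), Lingo1 (0.0057), Lrrc49 (−0.31), Mpi (0.0059), Neo1 (0.13), Parp6 (−0.50), Pkm (−0.11), Tspan3 (−0.16) and Ubl7 (0.26). The median over the flanking genes in input was −0.22 without the filter and 0.049 with WT input 2 and 3 apart. The median near Celf6 in TRAP was 0.37 within 0.5 Mb and −0.012 within 2 Mb.

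With 1 library left out, the fold change in TRAP ran from −0.38 to 0.059 for Anp32a, −1.94 to 0.31 for Cln6, −0.0076 to 0.46 for Fem1b, −0.58 to 0.61 for Glce, −0.58 to 1.84 for Itga11, −0.071 to 0.15 for Neo1, −0.39 to 0.16 for Nptn, −0.22 to 0.035 for Parp6, −0.061 to 0.13 for Pkm, −0.15 to 0.26 for Ptpn9, −0.39 to 0.036 for Rpp25, −0.55 to 0.024 for Sema7a, −0.048 to 0.42 for Senp8, −0.34 to 0.20 for Sin3a, −0.32 to 0.14 for Tspan3 and −0.29 to 0.088 for Ubl7. In input it ran from −0.91 to 0.47 for 2300009A05Rik, −0.31 to 1.28 for 6030419C18Rik, −0.30 to 1.03 for Adpgk, −0.15 to 0.42 for Anp32a, −0.48 to 0.14 for Arih1, −0.011 to 0.39 for Clk3, −0.62 to 0.89 for Cln6, −0.30 to 0.40 for Coro2b, −0.080 to 0.17 for Cox5a, −0.10 to 0.17 for Fem1b, −0.81 to 0.64 for Hexa, −0.057 to 0.48 for Myo9a, −0.58 to 0.42 for Neo1, −0.60 to 0.23 for Nptn, −0.13 to 0.22 for Pkm, −0.37 to 0.0057 for Sema7a, −0.22 to 0.79 for Senp8 and −0.32 to 0.96 for Thsd4. The Pkm event in input ran from −1.42 to 0.021. The median in input ran from −0.13 to 0.034 over all flanking genes and from −0.10 to 0.24 within 1 Mb.

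Same-numbered libraries deviated together weakly or not at all, with r from −0.17 to 0.033 between KO and WT TRAP, −0.090 to 0.19 between KO and WT input, −0.19 to 0.037 between TRAP and input of KO brains and −0.16 to −0.030 of WT brains. With the replicate block 0 flanking genes were called between KO and WT in TRAP, in input and for PSI. Some genes, such as Hexa and Adpgk, have intervals too wide for a 2-fold change to be seen.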
